A study of Mus musculus with 2 samples.

Results

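The genes described are 4 that encode binding proteins promoting the decay of AU-rich messenger RNAs (Zfp36, Zfp36l1, Zfp36l2 and Khsrp), 1 that encodes a stabilising binder of the same elements (Elavl1), and 4 of the BTG/TOB family (Btg1, Btg2, Tob1 and Tob2). They were chosen by name, and their symbols were looked up from the NCBI gene numbers of the deposited tables. All 9 were found among the 17215 genes listed, and all 9 passed the minimum level set for comparison, a mean of at least 1 FPKM over both libraries. FPKM counts fragments per kilobase of transcript and scales them to the mapped fragments of the library, so that levels of different genes can be compared per length. RNA came from MC3T3-E1, a clonal mouse pre-osteoblast line, cultured with formaldehyde (FA), a reactive aldehyde, at 100 µM in group FA_100 and at 300 µM in group FA_300. Each dose had 1 library, and no length of exposure is stated in the labels. Samples without formaldehyde were not analysed here. With no replicates there is no spread to hold a difference against, so p-values were not computed and every comparison is one between 2 libraries.

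AU-rich elements are U-rich stretches with AUUUA cores in the 3′ untranslated regions (UTRs) of many short-lived mRNAs, among them those of immediate early genes, cytokines and growth regulators. Tristetraprolin (Zfp36) and its relatives bind them through CCCH zinc fingers and bring in the CCR4-NOT deadenylase, which removes the poly(A) tail, while KSRP (Khsrp) binds through KH domains and recruits decay enzymes. HuR (Elavl1) binds overlapping U-rich sequences and generally stabilises the mRNA. BTG and TOB proteins, known as antiproliferative factors, bind the CCR4-NOT nucleases and link them to poly(A) mRNA, so that they act on the same step with less sequence preference.

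The zinc finger proteins' preferred site, written as DNA, is TTATTTATT, and it was searched in the 3′ UTR of 1 representative GENCODE release M21 transcript per gene. Of 10022 compared genes with a 3′ UTR, 7.78% held it. It was found in 4 of the 9 genes described, all of them AU-rich element binders themselves. Their sites are shown because these mRNAs encode the binders and carry the element too, with the nonamer in capitals and 29 bases in all.
Zfp36: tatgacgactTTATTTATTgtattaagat
Zfp36l1: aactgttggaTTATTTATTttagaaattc
Zfp36l2: actatttaacTTATTTATTatcttgtgaa
Elavl1: tgaaaaTTATTTATTTATTTATTTATTtt
The Zfp36, Zfp36l1 and Zfp36l2 UTRs hold 1 nonamer each. The Elavl1 UTR, of 4218 bases, holds 8 overlapping or separate nonamers, 4 of them within the stretch shown. Only 3 of the 10022 UTRs hold 8 or more, a count over UTRs of all lengths. Khsrp, Btg1, Btg2, Tob1 and Tob2 hold none, although each has at least 1 ATTTA core, a motif present in 68.6% of UTRs. A match is a run of letters and was not shown to be bound here.

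At 300 µM, 1 of the 9 genes was higher by 2-fold or more, 6 were lower by 2-fold or more and 2 lay in between. Fold was counted on log2((FPKM at 300 µM + 1)/(FPKM at 100 µM + 1)), called the log2 ratio below, in which the added 1 understates changes of low genes. The background was 6.09% higher and 29.8% lower by this measure over all 10123 genes compared, whose median log2 ratio was -0.30 against -1.29 for the 9 genes. The single gene that was higher, Zfp36, encodes a decay factor, and the 6 that were lower included its relatives Zfp36l1 and Zfp36l2, Khsrp, the stabiliser Elavl1, Btg1 and Tob2. Decay factors and the stabiliser were thus not divided by direction. After centring on the median gene, which raises every log2 ratio, 1 of the 9 was higher and 4 were lower, where 14.5% and 22.3% of all genes were.

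**Figure D1:**
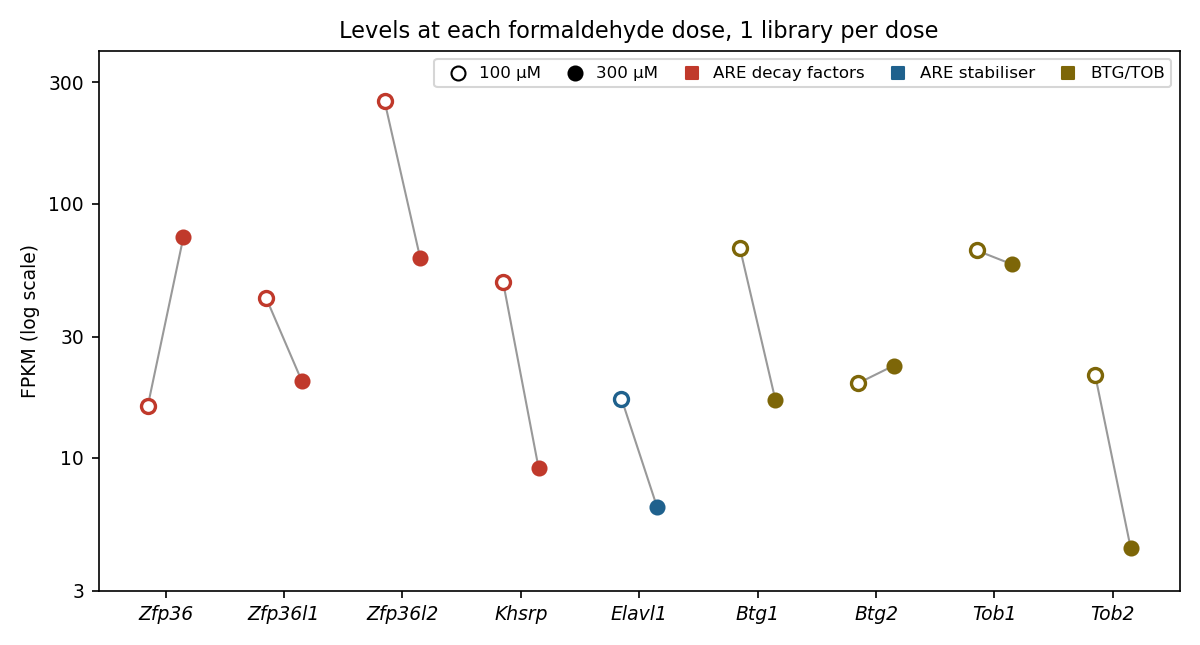
FPKM of the 9 genes (log axis) at 100 µM (open circles) and 300 µM (filled circles), 1 library per dose, coloured by role. Zfp36 is the single gene with a steep upward line, from 16.0 to 73.7 FPKM, while Btg2 and Tob1 are nearly level and the other 6 slope down.

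Zfp36, which encodes tristetraprolin and is itself an immediate early gene, measured 16.0 FPKM at the lower dose and 73.7 FPKM at the higher dose. This is 4.60-fold higher, with an exact 95% counting interval of 4.26 to 4.96, from an estimated 828 and 3915 reads. Its log2 ratio of 2.13 exceeded that of 99.7% of compared genes. Zfp36 was the lowest of the 9 genes at the lower dose and the highest of them at the higher dose. Unlike the counts beyond 2-fold, folds given for single genes here and below are ratios of FPKM without the added 1. Their counting intervals come from reads estimated from FPKM, transcript length and library depth. They cover counting error only, not variation between cultures. The Zfp36 transcript taken here, of 2790 bases, may be longer than the one the authors used, in which case fewer reads underlie its values and its interval is wider.

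The promoter of Zfp36 holds a CArG box, the site of serum response factor, starting 58 bases before the annotated start (RefSeq, GRCm38.p6, minus strand), shown here because the gene was the one at least 2-fold higher. It is given with the box in capitals.
Zfp36: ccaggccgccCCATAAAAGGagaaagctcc
A CArG box (CC, then A or T at each of the middle places, then GG, a pattern that reads the same on both strands) occurs in 1.63% of 32851 promoter windows from 250 bases before to 50 after a start. Of the 8 members with a promoter in the table, Zfp36 alone held one. Zfp36l2 had no promoter entry, so neither motif of this paragraph was searched in it. The cAMP response element TGACGTCA, also its own reverse complement and present in 1.79% of windows, was found in Btg2 alone, starting 166 bases before its start.
Btg2: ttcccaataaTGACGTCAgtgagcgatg
No binding was measured in these libraries.

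Zfp36l2, a relative of tristetraprolin with the same kind of zinc fingers, measured 253 FPKM at the lower dose and 61.3 FPKM at the higher dose, which is 4.12-fold lower (95% counting interval 3.99 to 4.27). It was by far the most abundant of the 9 at 100 µM, and second to Zfp36 at 300 µM. Zfp36l1, a further member of the family, stood at 42.5 and 20.1 FPKM, 2.11-fold lower (1.97 to 2.27). Its log2 ratio of -1.04 lies just past the 2-fold size and within it after centring (-0.74).

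The make-up of the Zfp36 family, taken as these 3 genes, thus differed between the doses. The remaining gene, Zfp36l3, was at 0.10 FPKM at 100 µM and listed at 0 at 300 µM. Zfp36 made up 5.15% of the family's summed FPKM at 100 µM and 47.5% at 300 µM, and Zfp36l2 81.2% and 39.5%. Zfp36l1 kept a similar share, 13.7% and 13.0%. The ratio of Zfp36l2 to Zfp36 was 15.8 at 100 µM and 0.83 at 300 µM, a 19.0-fold difference. Because both genes are read in the same library, this ratio does not depend on how the libraries are scaled. The summed FPKM of the family was 311 at 100 µM and 155 at 300 µM, so in summed FPKM the higher Zfp36 level did not make up for the lower Zfp36l2 level.

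**Figure D2:**
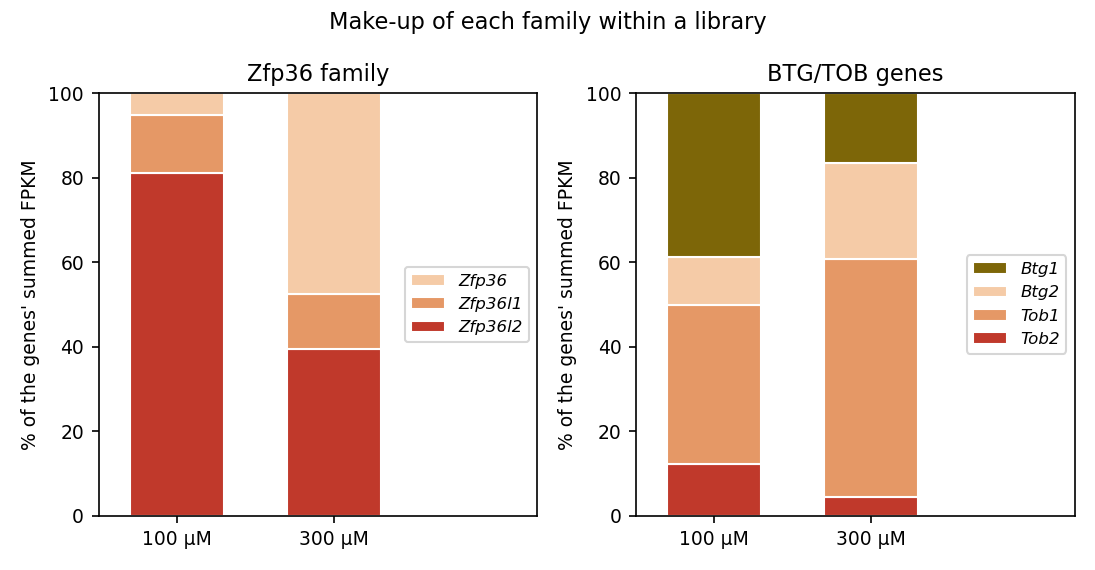
Share of summed FPKM (%) held by each gene of the Zfp36 family (left) and of the 4 BTG/TOB genes described (right) in the library of each dose. The Zfp36 segment widens from 5.15% to 47.5%, and the Tob1 segment from 37.8% to 56.5%.

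Khsrp, whose protein KSRP promotes decay of AU-rich mRNAs and takes part in microRNA maturation, had the lowest log2 ratio of the 9. It measured 49.3 FPKM at the lower dose and 9.13 FPKM at the higher dose, 5.40-fold lower (95% counting interval 4.98 to 5.86). Only 5.44% of compared genes had a lower log2 ratio.

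Elavl1, which encodes the stabiliser HuR, measured 17.1 FPKM at the lower dose and 6.42 FPKM at the higher dose, 2.66-fold lower (95% counting interval 2.44 to 2.91). Its log2 ratio of -1.29 was the median of the 9, and its level lay below those of all 4 decay factors at 300 µM. Within a library, Zfp36 over Elavl1 was 0.94 at 100 µM and 11.5 at 300 µM, a 12.2-fold difference in favour of the decay factor. For Khsrp over Elavl1 the direction was the opposite, 2.88 and 1.42. Zfp36l2 over Elavl1 was 14.8 and 9.54, and Zfp36l1 over Elavl1 was 2.49 and 3.13. The 4 decay factors together over Elavl1 gave 21.1 at 100 µM and 25.6 at 300 µM, a change of 1.21-fold. As deposited, the balance of summed decay factor mRNA to stabiliser mRNA therefore differed little between the doses, while its make-up differed much. These ratios carry the trend with transcript length described below, and Elavl1 has the longest transcript of the 9. Without the length and GC trend, log2 ratios were 2.51 for Zfp36, -0.59 for Zfp36l1, -1.50 for Zfp36l2, -1.70 for Khsrp and -0.40 for Elavl1. Zfp36l1 over Elavl1 then changed direction, and the sum was not computed on that scale. mRNA levels do not show protein amount or phosphorylation, through which tristetraprolin is known to be controlled.

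The BTG/TOB genes split into a pair that was lower and a pair that was within 2-fold. Btg1 measured 67.1 FPKM at the lower dose and 16.9 FPKM at the higher dose, 3.97-fold lower (95% counting interval 3.76 to 4.20). Tob2 stood at 21.3 and 4.43 FPKM, 4.80-fold lower (4.27 to 5.40), and was the lowest of the 9 genes at 300 µM. In each pair of close relatives, Btg1 with Btg2 and Tob2 with Tob1, 1 gene was lower and the other was within 2-fold.

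Btg2, also known as a p53 target gene, measured 19.7 FPKM at the lower dose and 23.1 FPKM at the higher dose, and Tob1 at 65.5 and 57.7 FPKM. Their log2 ratios were 0.22 and -0.18, and both signs depend on the scale. Btg2 had -0.14 when both libraries were scaled to the same sum, and Tob1 had 0.12 after centring. Btg2 over Btg1 within a library was 0.29 at 100 µM and 1.36 at 300 µM, and Tob1 over Tob2 was 3.08 and 13.0. Cdkn1a (p21), another p53 target, exceeded Btg2 30.7-fold at 100 µM and 5.07-fold at 300 µM. Tob1 made up 37.8% of the summed FPKM of the 4 BTG/TOB genes at 100 µM and 56.5% at 300 µM, while Btg1 made up 38.7% and 16.6%. The sum of the 4 genes was 174 and 102 FPKM. Of the family's other genes, Btg3 stood at 66.5 and 53.7 FPKM, and Btg4 was at 0.04 FPKM in both libraries.

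In order of FPKM at 100 µM, Zfp36l2 was followed by Btg1, Tob1, Khsrp, Zfp36l1, Tob2, Btg2, Elavl1 and Zfp36. At 300 µM the order was Zfp36, Zfp36l2, Tob1, Btg2, Zfp36l1, Btg1, Khsrp, Elavl1 and Tob2. Neighbours whose counting intervals overlapped were Btg1 and Tob1, Tob2 and Btg2, and Elavl1 and Zfp36 at 100 µM, and Zfp36l2 and Tob1 at 300 µM. Without replicates, other neighbours cannot be said to differ beyond the spread between cultures.

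**Figure D3:**
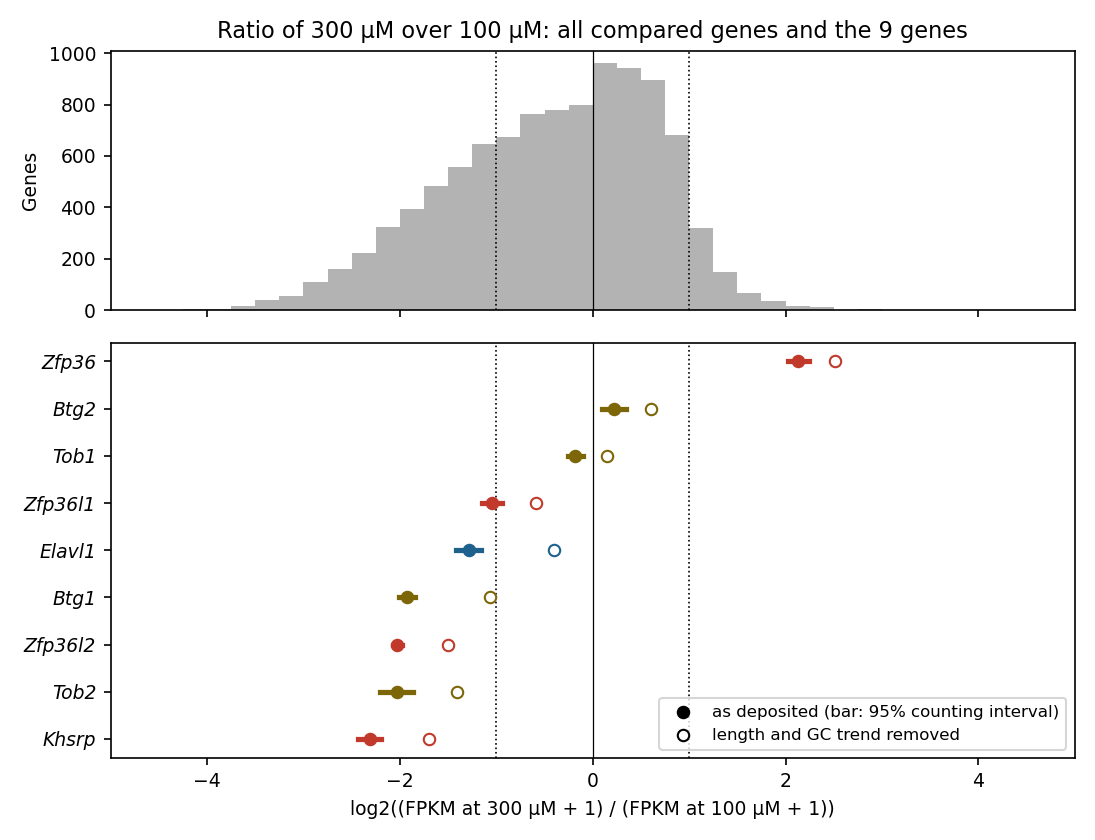
Top, number of compared genes by log2 ratio of 300 µM over 100 µM (2 genes over 5 not shown). Bottom, the 9 genes as deposited (filled circles, bars giving 95% counting intervals) and with the length and GC trend taken out (open circles), with dotted lines at 2-fold. Zfp36 stays above 2-fold on both scales, whereas Zfp36l1 and Elavl1 move inside 2-fold once the trend is removed.

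Longer transcripts had lower log2 ratios in these libraries, and this moves with the results for the longer of the 9 genes. The median log2 ratio was 0.70 over 597 compared genes with representative transcripts up to 1000 bases and -1.05 over 1167 genes with transcripts longer than 6000 bases. At least 2-fold lower were 4.02% of the former and 52.3% of the latter. Zfp36, Btg2 and Tob1, the genes that were higher or level, had transcripts of 2790, 2743 and 2288 bases, the shortest of the 9. The other 6 ran from 2990 bases (Zfp36l1) to 5743 bases (Elavl1).

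Each gene was therefore set beside compared genes of similar length, from 80% to 125% of its own. Zfp36 lay 2.45 above the median log2 ratio of 2756 such genes, of which 5.44% passed 2-fold upward, a band that would differ with a shorter Zfp36 transcript. Khsrp lay at -1.69 from the median of its own band, Zfp36l2 at -1.49, Tob2 at -1.40 and Btg1 at -1.16. Elavl1 lay at -0.41, in a band of 1710 genes of which 46.0% were at least 2-fold lower, and Zfp36l1 at -0.63. Tob1 lay at -0.02 and Btg2 at 0.53. With the trend with length and GC content removed from all ratios, 1 of the 9 passed 2-fold upward and 4 downward, beside 14.0% and 16.1% of 10093 genes. The part of transcript length in the members' ratios was not tested further.

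**Figure D4:**
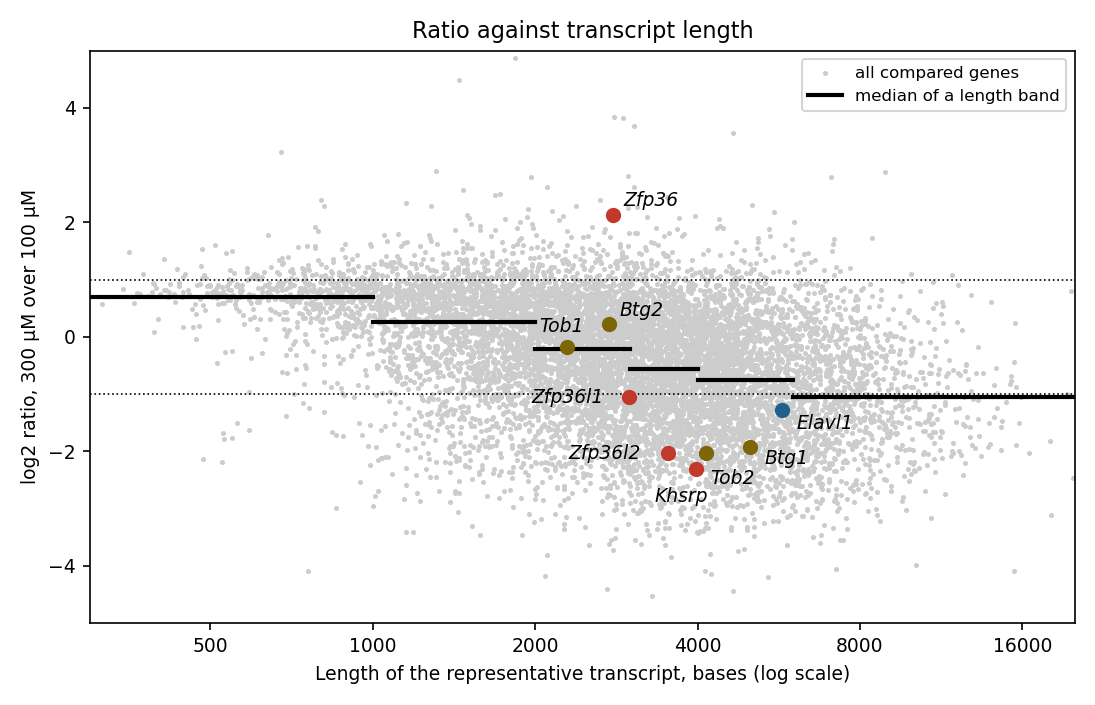
Log2 ratio of 300 µM over 100 µM against the length of each gene's representative transcript (log axis), with grey points for compared genes, black bars for the median of each length band and coloured points for the 9 genes. The band medians step down from 0.70 to -1.05, and Zfp36 at 2.13 lies far above its band while Elavl1 at -1.29 lies near its own (2 genes over 5, and 38 with no length or outside the axis, are not shown).

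The complex that the zinc finger and BTG/TOB proteins bind was mostly lower at 300 µM. Of 12 genes of the CCR4-NOT complex and its partner Tnks1bp1, all compared, 8 passed 2-fold downward and 0 upward (7 and 0 after centring), and the median log2 ratio was -1.40. Cnot1, the scaffold to which tristetraprolin binds, measured 17.6 FPKM at the lower dose and 5.89 FPKM at the higher dose. Cnot7, a nuclease subunit bound by BTG/TOB proteins, stood at 30.3 and 9.37 FPKM, and its paralogue Cnot8 at 24.5 and 14.1 FPKM. The other nuclease genes, Cnot6 and Cnot6l, stood at 17.2 and 3.24 FPKM and at 2.95 and 0.72 FPKM. Cnot11 and Tnks1bp1 had log2 ratios of -2.53 and -2.85. The structural subunits Cnot2 and Cnot3 were within 2-fold, at -0.82 and -0.34. Cnot10, named after its values were seen, was the one gene of the 12 with a log2 ratio above 0, at 15.2 and 24.0 FPKM (0.63). The share lower was 66.7%, where 29.8% of all genes were, and 6.09% of all genes were higher. After centring, 22.3% of all genes were lower and 14.5% higher. With the length and GC trend removed, 5 of the 12 passed 2-fold downward and 1 upward, where 16.1% and 14.0% of all genes did. The median of the 12 was then -0.66.

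Later steps of mRNA decay were mixed. Of 20 decapping and 5′-to-3′ decay genes, 7 passed 2-fold downward and 2 upward (median -0.65). Ddx6, a helicase that promotes decapping, stood at 39.0 and 5.05 FPKM, and the decapping enzyme gene Dcp2 at 7.50 and 0.90 FPKM. Edc3 and Patl1, further decapping activators, had -2.20 and -1.79. In the other direction, Dcps, the scavenger enzyme for free caps, stood at 6.84 and 25.97 FPKM, and Lsm4, of the Lsm ring, at 77.2 and 171 FPKM. Xrn1, the 5′-to-3′ exonuclease gene, had -0.94.

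Among 11 other deadenylase and poly(A) binding genes, 1 was higher and 2 were lower (median -0.38). Noct (nocturnin) stood at 19.6 and 1.81 FPKM and Pan3 at 4.64 and 0.99 FPKM. Parn, poly(A)-specific ribonuclease, stood at 5.73 and 13.0 FPKM, and Pan2 had -0.38. Pabpc1, the main cytoplasmic poly(A) binding protein gene, had -0.26, a sign that flips after centring. Of 15 exosome and Ski complex genes, 1 was higher, Exosc2 at 44.4 and 164 FPKM, and 4 were lower, led by Exosc6, Exosc7 and Exosc4 with -2.69, -1.55 and -1.49 (median -0.45). At least 2-fold lower were 35.0% of the decapping list, 18.2% of the other deadenylase list and 26.7% of the exosome list, where 29.8% of all genes were. In the same order, 10.0%, 9.09% and 6.67% were at least 2-fold higher, where 6.09% of all genes were. With the length and GC trend removed, 7 of the 20 decapping genes, 1 of the 11 other deadenylase and poly(A) binding genes and 3 of the 15 exosome genes were lower, where 16.1% of all genes were. On that scale 2, 1 and 2 of these lists were higher, where 14.0% of all genes were. The medians were then -0.37, 0.05 and 0.24, so that those of the last pair of lists changed sign.

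**Figure D5:**
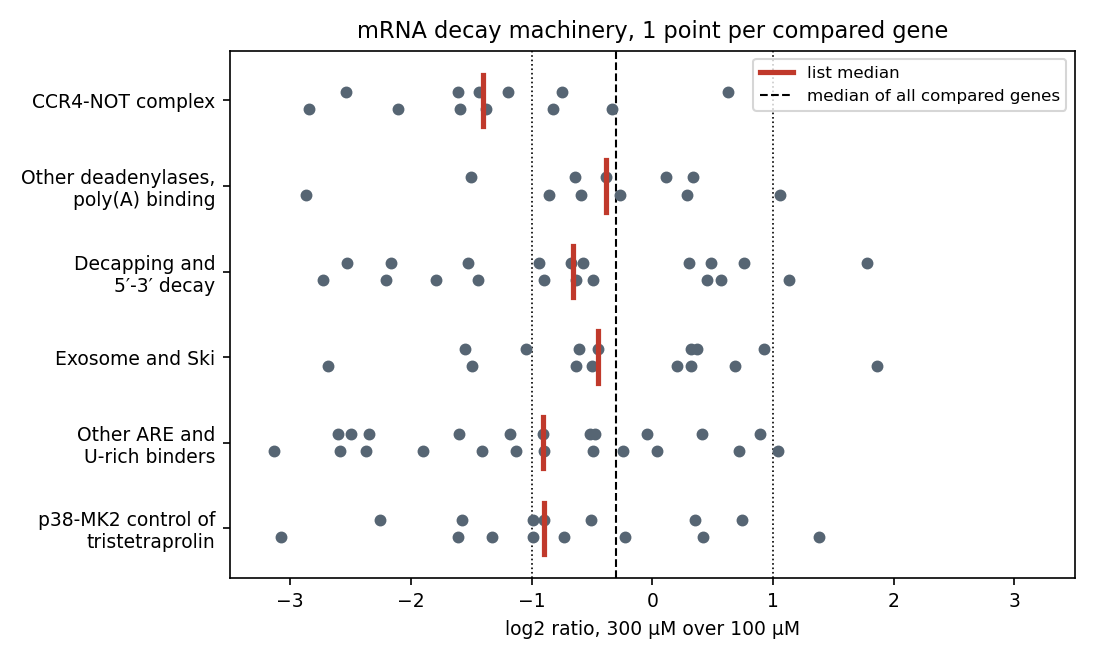
Log2 ratio of 300 µM over 100 µM for each compared gene of 6 lists of the decay pathway, with red bars for list medians, a dashed line for the median of all compared genes (-0.30) and dotted lines at 2-fold. The CCR4-NOT list lies furthest left, with a median of -1.40.

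Of 30 genes listed for other proteins that bind AU-rich or U-rich RNA, 23 were compared. Of these, 47.8% (11 genes) passed 2-fold downward and 4.35% (1 gene) upward, where 29.8% and 6.09% of all genes did, and the median was -0.91. With the length and GC trend removed, 6 and 3 of the 23 did, where 16.1% and 14.0% of all genes did, and the median was -0.15. Hnrnpd, which encodes the AU-rich binder AUF1, measured 16.8 FPKM at the lower dose and 32.0 FPKM at the higher dose (log2 ratio 0.89). Zc3h12a (regnase-1, an endonuclease that cuts inflammatory mRNAs) was the gene higher, at 4.54 and 10.4 FPKM. Tia1 and Tial1, translational repressors that bind U-rich RNA, had -0.90 and -1.13, and Celf1, a binder of GU-rich elements, -1.18. Among the genes lower were those of the m6A readers Ythdf2 (24.4 and 1.89 FPKM) and Ythdf1 (53.2 and 8.01 FPKM).

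The kinases p38 and MK2 phosphorylate tristetraprolin, which then binds 14-3-3 proteins and recruits less deadenylase. Of 15 genes of this list compared, 1 was at least 2-fold higher and 5 (33.3%, close to the 29.8% of all genes) were lower, and the median was -0.90. With the length and GC trend removed, 4 were lower and 2 higher, where 16.1% and 14.0% of all genes were. The median was then -0.25. Mapk14 (p38 alpha) stood at 20.4 and 6.18 FPKM, Mapkapk2 (MK2) at 43.6 and 30.4 FPKM, and its relative Mapkapk3 at 18.6 and 3.10 FPKM. The p38-activating kinase gene Map2k3 stood at 132 and 42.6 FPKM, and the 14-3-3 gamma gene Ywhag at 239 and 27.4 FPKM. The other 14-3-3 genes listed, named after their values were seen, were mostly within 2-fold. Ywhaq had 0.35, Ywhae -0.23, Ywhab -0.73 and Ywhah -0.99, while Ywhaz had -1.33. Mapk11, another p38 gene and also named afterwards, had 0.74. Dusp1, a phosphatase that inactivates p38, was the gene higher, at 23.0 and 61.5 FPKM.

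Genes listed here for AU-rich mRNAs went in both directions, and the list was not limited to those with the nonamer. Of 40 compared in a list chosen with earlier results of these data known, 11 passed 2-fold upward (27.5%, where 6.09% of all genes were) and 14 were lower (35.0%, where 29.8% were). With the length and GC trend removed, 11 were higher and 10 lower, where 14.0% and 16.1% of all genes were. The median was then -0.14. Fos, whose mRNA is a classic AU-rich decay substrate, was the highest with a log2 ratio of 2.62, and Zfp36 over Fos within a library was 2.18 at 100 µM and 1.46 at 300 µM. Plk3 and the chemokine gene Ccl2 both had 2.28. Has2, Ereg and Vegfa had -4.14, -4.10 and -3.52, and Myc had -2.46. Trp53 had 0.28, a sign that flips with equal sums. Of the 15 with transcripts up to 2000 bases, 8 were higher and 2 lower, where 12.0% and 12.2% of all compared genes of such length were. Of the 25 with longer transcripts 3 were higher and 12 lower, where 3.94% and 36.3% were. Of the 15 genes whose representative 3′ UTR holds TTATTTATT, 3 were higher and 8 lower, where 4.62% and 39.4% of all compared genes with the nonamer were. Of the 25 without it 8 were higher and 6 lower, where 6.16% and 29.1% were.

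Across all compared genes, those with the nonamer had both a lower median ratio and longer UTRs. Genes with at least 1 TTATTTATT (780 genes) had a median log2 ratio of -0.67, and 9242 genes without it -0.26. Their median UTR lengths were 2186 and 988 bases, and within bands of UTR length the medians lay closer together. Among UTRs of 1001 to 2000 bases the medians were -0.45 with the nonamer (207 genes) and -0.44 without it. Among UTRs of 2001 to 4000 bases they were -0.94 (253 genes) and -0.84, and above 4000 bases -0.999 (164 genes) and -1.02. Among the shorter UTRs of 501 to 1000 bases they were -0.31 (102 genes) and -0.14.

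The genes nearest to each of the 9 in both levels were found by Euclidean distance in log2(FPKM + 1), over the 2 libraries alone. For Zfp36 these were Nxn (16.7 and 58.5 FPKM, distance 0.33) and Coa8 (21.7 and 71.4 FPKM, distance 0.42), the largest distances of any of the 9. Zfp36l2 had Ccng1 (237 and 61.1 FPKM, distance 0.090) and Brd2 (distance 0.27). Elavl1 had Ero1a and Ccdc127, Khsrp had Procr and Vgll3, and Zfp36l1 had Pomgnt1 and the exosome gene Exosc9. Btg1 had Ppp4r2 and Arf6, Btg2 had Rras2 and Tfpi, Tob1 had Dohh and Ltbp3, and Tob2 had Fbxo38 and Polm. With a pair of libraries such likeness is shared by many genes, and the distances are a description.

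The libraries held an estimated 18500000 mapped fragments at 100 µM and 19000000 at 300 µM. Of 7 osteoblast markers compared, 0 were beyond 2-fold on the log2 ratio, where 6.09% of all genes were higher and 29.8% lower. Among the 7, Alpl (0.98 and 1.06 FPKM) and Ibsp (1.83 and 1.77 FPKM) lay near the minimum level. There the added 1 makes 2-fold hard to reach. Col1a1 stood at 2065 and 1714 FPKM. Runx2 stood at 7.99 and 3.60 FPKM, with a log2 ratio of -0.97 that the added 1 keeps inside 2-fold, and Bglap (osteocalcin) was listed at 0 at 100 µM and stood at 0.49 FPKM at 300 µM. Of the chondrocyte markers, Col2a1 stood at 322 and 350 FPKM, Acan was listed at 0 in both, and Sox9 was at 61.4 and 9.78 FPKM. Macrophage and blood markers summed to 22.6 and 28.7 FPKM over 7 genes, with Adgre1 listed at 0 in both. Of the 3 compared, Lyz2 stood at 13.2 and 26.5 FPKM, whereas Cd14 (6.36 and 0.94 FPKM) and Cd68 (2.57 and 0.77 FPKM) were at least 2-fold lower. Muscle markers summed to 3.58 and 10.6 FPKM, nearly all of it Acta1 (3.29 and 10.1 FPKM), with Myog listed at 0 in both. Adipocyte and endothelial lists summed to at most 0.55 FPKM. The part of other cell types in the results was not tested. In such bulk RNA, fewer cells with a transcript and less of it per cell cannot be told apart.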

How the data were processed

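RNA sequencing was done on 1 library per dose. Per the file headers, the authors deposited gene-level FPKM values. The submitters' processing notes list Bowtie2 and RSEM. Neither versions nor a genome build or annotation were named (not given in the sources used here). Coordinates are therefore left out. Rounding to 2 decimals was read from the values.

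Of 17215 NCBI gene numbers, 17179 were named from RefSeq genes (GRCm38.p6) and 7 from GENCODE release M21. The latter gave lengths and 3′ UTRs, from 1 transcript per gene (coding, RefSeq-matched where possible, longest). Length was available for 10093 of 10123 compared genes. FPKM depends on the annotation the authors used and on how RSEM divided reads among isoforms and copies. For the 9 genes, at most 3.3% of the transcript's 50-base words (Zfp36l1) occur in another gene.

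Depth was read from low FPKM values of genes with 1 transcript of 500 to 1200 bases. The step for 1 read was sought only within a range set beforehand, and the best fit was kept. A depth outside that range could not have been found. Taking 1 read as 54 bases at 100 µM and 52.5 at 300 µM placed 71.0% of 93 and 72.1% of 68 values within 0.12 reads of a whole number. Reads per gene are FPKM times length over this step. Intervals are exact binomial (ratios) and exact Poisson (levels), and they treat reads as independent, although PCR copies were not marked by molecular identifiers.

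The members and the 17 gene lists (195 of 200 entries matched) were chosen with earlier results of these data known. Named genes are the 9 members, up to 3 per list and direction beyond 2-fold at a mean of at least 5 FPKM, fixed genes, and the 2 nearest genes to each member. Of the genes this rule names, 1 is not reported here. Trends with length and GC content were removed by least squares on log2 length, GC and their squares. Alternatives were pseudocounts of 0.1 and 5, no filter, a mean of at least 10 FPKM, 1.5-fold and 3-fold, centring, an unweighted TMM factor (0.759), equal sums, and trend removal. On simulated data for this comparison (10164 genes), 50 of 50 genes changed 3-fold upward and 49 of 50 changed 3-fold downward passed 2-fold. All 50 changed 4-fold each way passed it too, as did 0 of 9964 unchanged genes. Both simulated libraries were drawn from the values at 100 µM with counting error only, and the changed genes had at least 5 FPKM. No trend with length, scale difference or variation between cultures was simulated. The share of false calls in the deposited data therefore cannot be read from it. Computation used scipy 1.17.1, numpy 2.4.6, matplotlib 3.10.9 and pandas 2.3.3 under Python 3.11.15.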

Additional observations from a re-analysis of the deposited data

How the results depend on the processing

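Of the 9 genes, 1 (Zfp36) was higher under all 10 alternatives, and the number lower was 6 or 4. Khsrp, Zfp36l2, Tob2 and Btg1 stayed at or beyond 2-fold lower under the 6 alternatives that change a ratio, with Btg1 closest to the bound at -1.07 once the length and GC trend was removed. Zfp36l1 (-1.41 to -0.59) and Elavl1 (-1.63 to -0.40) kept their sign but stayed beyond 2-fold in 2 of the 6. Zfp36 ranged from 1.77 to 2.53. The median over all genes was -0.30 as deposited, -0.63 with equal sums and 0.05 with the TMM factor. The number of all genes at least 2-fold higher, 616 as deposited, was 258 with a pseudocount of 5, 358 at a mean of at least 10 FPKM, 1472 after centring, 1728 with the TMM factor, 237 with equal sums and 1417 with the trend removed, and 1901 at 1.5-fold and 123 at 3-fold. The number lower, 3020, was 1630 and 1626 with the pseudocount of 5 and the trend removed, and 1653 at 3-fold. The filter at a mean of at least 10 FPKM left fewer genes, 5340, of which 358 were higher and 1141 lower. Removal of the trend changes the balance most, from 616 higher and 3020 lower to 1417 and 1626. No paired analysis was possible because each dose has 1 library. Reads estimated for the 9 genes ranged from 350 to 16512, so counting error was small beside the differences over 2-fold, and variation between cultures is unknown.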
